A study of Mus musculus with 15 samples.

Results

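BALBc and C57 are inbred mouse strains, and the comparison described here set the liver RNA of 12-day-old BALBc pups in room air against that of C57 pups of the same age in room air. It took 7 of the 15 libraries of the series, taken by their labels: 3 BALBc normoxia and 4 C57 normoxia libraries, called BALBc livers 1 to 3 and C57 livers 1 to 4. The study asked how liver metabolism differs between a strain resistant to oxygen-induced retinopathy and a susceptible one; in that disease model young mice kept in high oxygen lose vessels of the retina. The other 8 libraries, 4 BALBc hyperoxia and 4 C57 hyperoxia, came from pups in 75% oxygen from postnatal day 7 to day 12 and served only as a second set of livers in which the strains could be compared. All animals were in room air to day 7. The labels give no substrain, litter or sex and do not say that each library was 1 pup, so a p-value here is set against the spread among these libraries, which may be technical.

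Values are FPKM (fragments per kilobase of transcript and 1000000 fragments) as deposited, of 54532 genes. A gene was tested when its FPKM was at least 1 in at least 3 of the 7 libraries, which kept 12019 genes. The fragments behind each library's FPKM, read from the steps between its low values, were 1.53e+07 to 1.91e+07 in the 7 livers. BALBc liver 1 and C57 liver 4 stood apart from the other 5: 33.5% and 32.9% of their genes at 1 to 10 fragments were at exactly 1, against 10.3% to 18.2% in the others, so each strain had 1 such library. Xist, the RNA of the inactive X chromosome, was at 55.9, 0.0542 and 61.3 FPKM in BALBc livers 1 to 3 and at 0, 50.7, 49.6 and 0.0219 FPKM in C57 livers 1 to 4, so neither strain held one sex only. The gene with the highest FPKM was Alb, liver albumin, in 3 of the 7 libraries and Gm23935, a short noncoding RNA, in the other 4. Among genes of the exocrine pancreas, Cpa1 and Prss2 were at 0 except in C57 liver 1 (4.72 and 2.36 FPKM). Cela2a was at 0 in the BALBc livers and at 6.71, 0, 1.76 and 1.18 FPKM in C57 livers 1 to 4. Cela1 was at 4.11 to 6.26 FPKM in BALBc livers and 2.52 to 3.75 FPKM in C57 livers; it was called higher, but not without BALBc liver 1 or 3 or without C57 liver 2, 3 or 4. The labelled strains were checked at H2-Ea-ps, the class II Ea gene that C57 mice carry with a deleted promoter and BALBc mice carry intact: it had 12.4, 11.7 and 11.1 FPKM in BALBc livers, against 0, 0, 0 and 0 in C57 livers.

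In the second week after birth the mouse liver is still leaving its fetal programme: alpha-fetoprotein, H19 and insulin-like growth factor 2 are being shut off, blood formation is moving to the marrow, and zones of hepatocytes with different enzymes are forming between portal and central veins. The liver makes most plasma proteins, among them the serpin protease inhibitors, and breaks down drugs, steroids and lipids with cytochrome P450 enzymes. During suckling it lives on milk fat, which it oxidizes in mitochondria and peroxisomes.

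The livers separated by strain on the first principal component, which held 55.0% of the variance and had the 3 BALBc livers on one side and the 4 C57 livers on the other, while the second, with 14.1%, set C57 liver 2 apart from the rest. With limma (adjusted p under 0.05 over all genes, Benjamini-Hochberg) 2282 genes differed, 19.0% of those tested: 1126 (9.37%) were higher and 1156 (9.62%) lower in BALBc livers, 642 of them by at least 2-fold (282 higher, 360 lower). The groups did not overlap for 3767 genes, 31.3% of those tested. The median difference over all genes was 0.01 on the log2 scale. Without BALBc liver 2 there were 1350 calls and without BALBc liver 3 there were 1383, and 1159 of the 2282 genes (50.8%) were called whichever single library was left out. Log2 differences are BALBc minus C57 on the log2(FPKM + 1) scale, which understates the change of weakly expressed genes. They are given with their standard error after ±, and FPKM means with the standard deviation over 3 BALBc and 4 C57 libraries; adjusted p-values are from limma over all 12019 genes. The strains did not overlap for any gene called in room air and named below.

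**Figure D1:**
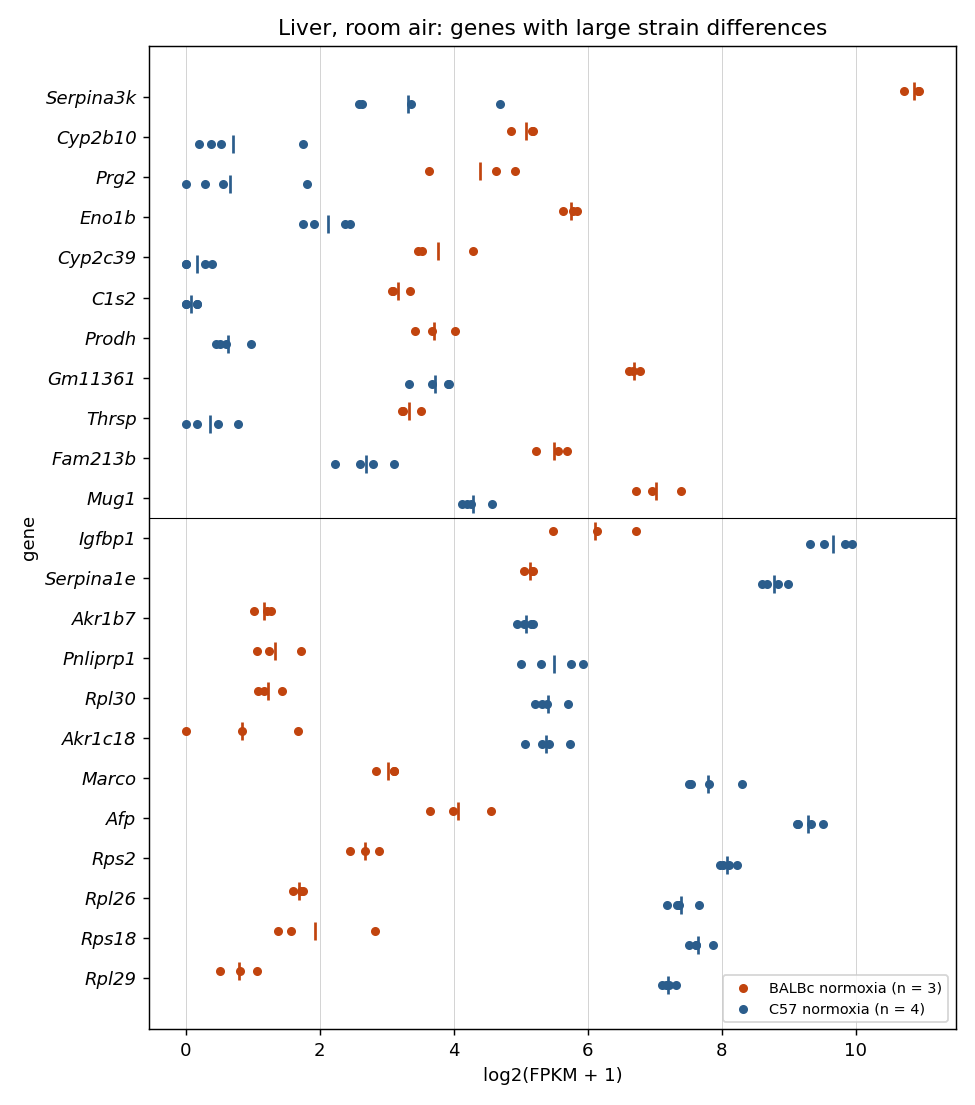
FPKM of 11 of the 12 protein-coding genes with the largest called positive difference and of the 12 with the largest negative one, on a log2(FPKM + 1) scale; each point is 1 library, ticks are group means, BALBc normoxia (n = 3) above C57 normoxia (n = 4) in each row. The strains do not overlap for any of the 23 genes, with Serpina3k, at 1877 against 11.1 FPKM on average, at the top.

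Genes of ribosomal proteins, the structural proteins of the ribosome, were lower in BALBc livers across most of the family. Of 49 ribosomal protein genes listed and tested, 47 were lower in BALBc livers, none higher, with a median log2 difference of -0.77 (median of all genes 0.01). By symbol, 69 of 77 cytosolic ribosomal protein genes were lower and none higher. The 80 such genes in the file together took 1.03 ± 0.07% of the fragments in BALBc livers (n = 3) and 1.90 ± 0.15% in C57 livers (n = 4, SD). Rpl29 (ENSMUSG00000048758) had 0.418, 0.749 and 1.09 FPKM in BALBc livers, against 147, 158, 137 and 144 in C57 livers. Rpl29 differed by -6.41 ± 0.13 (adjusted p = 3.5e-08). Rpl26 had 2.03, 2.29 and 2.37 FPKM in BALBc livers, against 144, 161, 164 and 201 in C57 livers. Rpl26 differed by -5.70 ± 0.12 (adjusted p = 3.5e-08). Rps18 had 6.08, 1.59 and 1.97 FPKM in BALBc livers, against 181, 195, 195 and 234 in C57 livers. Rps18 differed by -5.73 ± 0.31 (adjusted p = 7.1e-06). Rps2 differed by -5.42 and Rpl30 by -4.17 on the log2 scale. The BALBc values of these genes lay far below every C57 value. Another gene holds 30.9% of the 31-base words of Rpl29, 40.3% of those of Rps2, 23.4% for Rpl26 and 15.8% for Rps18. Of the 49 listed genes 39 had a share of 10% or more. The part of shared sequence in their low values was not tested.

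Ribosomal protein genes are known for many intronless copies elsewhere in the genome, and some copies differed in the other direction. The reference genome named in the submitters' processing notes, GRCm38, is that of a C57BL/6J mouse; its part in these differences was not tested. The first 120 coding bases of 2 genes and of the copy with which each shares most 31-base words are shown here, from GENCODE M21 transcripts on GRCm38, because they show how little tells gene and copy apart. Capitals mark bases that differ between gene and copy, of which the Rpl26 stretch has none.
Rplp0 (chromosome 5, plus strand): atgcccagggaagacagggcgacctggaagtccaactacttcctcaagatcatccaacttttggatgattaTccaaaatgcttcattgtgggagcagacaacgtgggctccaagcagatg
Gm8730 (chromosome 8, minus strand): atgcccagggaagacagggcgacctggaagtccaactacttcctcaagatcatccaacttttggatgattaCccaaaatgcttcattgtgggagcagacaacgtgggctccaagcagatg
Rpl26 (chromosome 11, plus strand): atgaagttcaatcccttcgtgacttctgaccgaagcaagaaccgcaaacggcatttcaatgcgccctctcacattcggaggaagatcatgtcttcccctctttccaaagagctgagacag
Gm15772 (chromosome 5, plus strand): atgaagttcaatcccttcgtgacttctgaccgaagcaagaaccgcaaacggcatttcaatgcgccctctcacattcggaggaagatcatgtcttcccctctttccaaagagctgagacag
Over the whole coding sequence Rplp0 and Gm8730 match at 942 of 954 bases (98.7%) and Rpl26 and Gm15772 at 436 of 438 (99.5%). On GRCm38, Rplp0 lies at 115559467 to 115563727 of chromosome 5, Gm8730 at 102864845 to 102865798 of chromosome 8, Rpl26 at 68901583 to 68906989 of chromosome 11 and Gm15772 at 3236431 to 3236868 of chromosome 5.

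The copies were high in BALBc livers where their genes were low. Gm8730 had 184, 188 and 189.8 FPKM in BALBc livers, against 3.58, 2.20, 1.62 and 4.46 in C57 livers, while Rplp0, a protein of the ribosomal stalk, had 100.3, 91.47 and 109 FPKM in BALBc livers, against 413, 379, 360.4 and 397 in C57 livers. Rplp0 differed by -1.94 ± 0.09 (adjusted p = 2.8e-06). Gm15772 had 359.6, 336 and 313 FPKM in BALBc livers, against 26.4, 32.8, 17.55 and 28.9 in C57 livers. Counted as fragments per 1000000, Rplp0 and Gm8730 together made 345 ± 15.4 in BALBc livers and 646 ± 38.97 in C57 livers. Rpl26 with Gm15772 made 150.46 ± 10.02 in BALBc livers and 254 ± 35.1 in C57 livers (SD, n = 3 and 4). These sums differed less than the genes did but were still lower in BALBc livers. Each sum holds 1 copy only, and other copies are left out. Gm9625, with 50.9% of its words in Gm8730, made 20.1 fragments per 1000000 in BALBc livers and 0.225 in C57 livers. For Rps18 with Gm11361, itself annotated as coding and higher in BALBc livers (102 ± 6.04 FPKM in BALBc livers and 12.3 ± 2.44 in C57 livers), the sum was 70.01 ± 6.78 in BALBc livers and 501 ± 55.6 in C57 livers; the log2 ratio of the sums was -2.84, against a difference of -5.73 on the log2(FPKM + 1) scale for Rps18 alone.

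Gene and copy also differed in opposite directions outside the ribosome. Ahcy, the hydrolase of S-adenosylhomocysteine, was lower in BALBc livers (102 ± 9.14 FPKM in BALBc livers and 223 ± 4.75 in C57 livers; -1.12 ± 0.08 log2, adjusted p = 4.8e-05) and its copy Gm4737 higher (234 ± 16.7 FPKM in BALBc livers and 51.1 ± 3.67 in C57 livers), and their fragments per 1000000 together were 776 ± 55.4 in BALBc livers and 732 ± 16.1 in C57 livers. Mitochondrial mt-Nd3 fell (8.15 ± 5.73 FPKM in BALBc livers and 74.2 ± 17.4 in C57 livers) while its nuclear copy Gm28438 rose (64.7 ± 21.7 FPKM in BALBc livers and 11.7 ± 5.81 in C57 livers), with sums of 25.1 ± 9.32 in BALBc livers and 29.9 ± 7.90 in C57 livers in fragments per 1000000. Fabp5, a fatty acid binding protein, had a lower sum with Gm6166, in fragments per 1000000 197 ± 49.52 in BALBc livers and 832 ± 84.8 in C57 livers. Both Glo1 and its copy Gm13443 were higher in BALBc livers. Glo1, the glyoxalase that detoxifies methylglyoxal, had 291, 268 and 264 FPKM in BALBc livers, against 61.6, 56.7, 67.49 and 71.7 in C57 livers. Glo1 differed by 2.08 ± 0.10 (adjusted p = 3.3e-06). With Gm13443 its sum in fragments per 1000000 was 3403 ± 179 in BALBc livers and 779.8 ± 79.8 in C57 livers. These pairs were picked after their values were seen. Of 33 genes called higher with at least 50% of their words in another gene and a log2 difference of at least 2, 27 had a tested coding partner. That partner was lower in 16, higher in 3 and not called in 8. Over all genes tested 9.62% were lower and 9.37% higher. A partner of more than 1 copy was counted for each, as happened among the 16. Eno1b was counted both as a copy and as a partner.

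**Figure D2:**
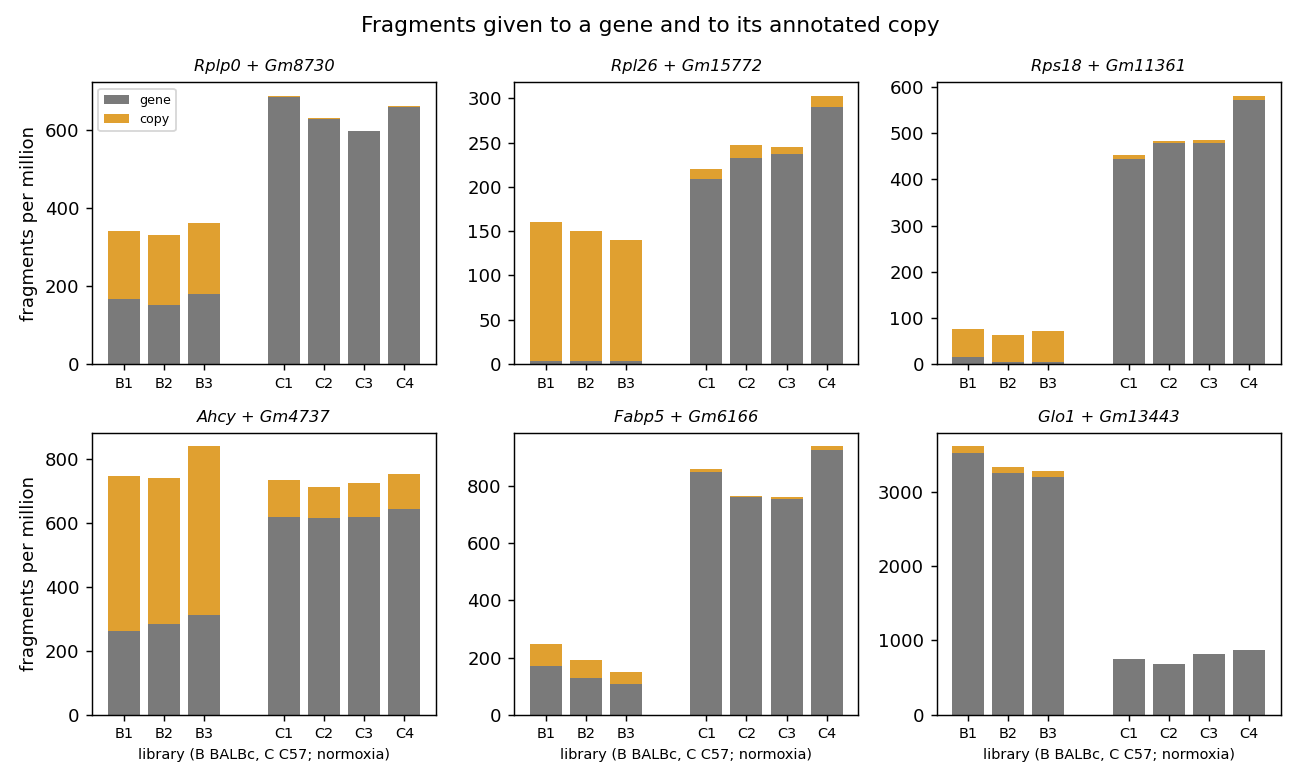
Fragments per 1000000 given to a gene (grey) and to the annotated copy that shares most of its words (amber), stacked, in BALBc livers 1 to 3 (B) and C57 livers 1 to 4 (C) in normoxia. The Rpl26 bar is nearly all copy in BALBc livers and nearly all gene in C57 livers; the stacked sums of Ahcy and Gm4737 are of like height in both strains, and those of Glo1 and Gm13443 are higher in BALBc.

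Across coding genes, those with 10% to 50% of their words in another gene were called lower more often than higher, 168 against 70 of 747 tested, whereas among the 9857 with under 10% the counts were 821 lower and 908 higher. Among the 126 with 50% or more they were 23 lower and 22 higher. With ribosomal protein genes left out, the 812 coding genes with 10% or more had 137 lower and 92 higher. The part of sequence copies in any single difference was not tested; for genes named from here on the share is given where it is 10% or more.

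The largest log2 difference among the genes tested was in a plasma protease inhibitor. Of 21 serpins and macroglobulins tested, 5 were higher and 12 lower in BALBc livers (median -0.47). Serpina3k (contrapsin, ENSMUSG00000058207, chromosome 12, 104338486 to 104346144, plus strand, GRCm38), an inhibitor of serine proteases of the A3 cluster, had 1962, 1698 and 1971 FPKM in BALBc livers, against 5.17, 9.32, 24.9 and 4.997 in C57 livers (7.55 ± 0.45 log2, adjusted p = 1.4e-05); 4.49% of its words occur in another gene. The other A3 genes called on the list were all lower in BALBc livers, by -2.07 to -0.47 log2. Genes of the A1 cluster, the mouse alpha-1-antitrypsins, were lower as well. Serpina1e had 32.2, 35.3 and 35.1 FPKM in BALBc livers, against 388, 409, 459.8 and 510.47 in C57 livers (-3.65 ± 0.11 log2, adjusted p = 2.7e-07), Serpina1d averaged 139 ± 24.1 FPKM in BALBc livers and 1157 ± 106 in C57 livers (-3.06 ± 0.13 log2) and Serpina1a averaged 426 ± 56.03 FPKM in BALBc livers and 1458 ± 51.2 in C57 livers (-1.78 ± 0.10 log2), with no overlap between strains. These paralogs have 38.8% to 55.49% of their words in another member of the cluster, so how fragments were divided among them is uncertain. Mug1, a murinoglobulin that traps proteases, had 123, 105 and 167 FPKM in BALBc livers, against 18.2, 16.47, 17.3 and 22.8 in C57 livers. Mug1 differed by 2.74 ± 0.17 (adjusted p = 1.7e-05). Of its words 28.1% occur in Mug2. A2m, alpha-2-macroglobulin, averaged 6.82 ± 3.501 FPKM in BALBc livers and 0.549 ± 0.263 in C57 livers (2.26 ± 0.29 log2).

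Among other secreted proteins the complement list had 3 of 26 members higher and 8 lower in BALBc livers, 11 calls in all that became 7 without BALBc liver 1. C4a (43.3% shared with C4b) averaged 5.02 ± 1.08 FPKM in BALBc livers and 0.547 ± 0.185 in C57 livers and C8a, a subunit of the membrane attack complex, 102 ± 7.65 FPKM in BALBc livers and 52.1 ± 5.62 in C57 livers. Of the lower ones, C6, another subunit of that complex, averaged 1.64 ± 0.163 FPKM in BALBc livers and 6.23 ± 1.65 in C57 livers (-1.43 ± 0.19 log2), and C1qc, a chain of C1q made by macrophages, 30.8 ± 2.42 FPKM in BALBc livers and 63.6 ± 8.08 in C57 livers. C1s2, a copy of the C1s protease gene, had 7.499, 9.19 and 7.48 FPKM in BALBc livers, against 0.117, 0, 0 and 0.123 in C57 livers (40.4% of words in C1s1). C1s2 differed by 3.09 ± 0.14 (adjusted p = 2.6e-06). Of 17 acute phase proteins 3 were higher and 5 lower, 8 calls that became 5 without BALBc liver 1 or without BALBc liver 3. Saa4, a constitutive serum amyloid A protein, was higher (98.6 ± 9.89 FPKM in BALBc livers and 50.3 ± 6.02 in C57 livers), and haptoglobin, Hp, was lower (2458 ± 80.4 FPKM in BALBc livers and 3557 ± 208 in C57 livers; -0.53 ± 0.08 log2, adjusted p = 0.0021), but not with quantile scaling (-0.11, adjusted p = 0.60) or with no filter (adjusted p = 0.12).

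Several fetal genes were lower in BALBc livers. Afp (alpha-fetoprotein, ENSMUSG00000054932, chromosome 5, 90490737 to 90508907, plus strand, GRCm38) had 22.4, 14.8 and 11.6 FPKM in BALBc livers, against 645, 734, 559.6 and 566 in C57 livers. Afp differed by -5.22 ± 0.20 (adjusted p = 9.9e-07). Of 7 tested genes on a list of Zhx2 and genes known to be silenced after birth under it, 5 were lower and none higher (median -1.65): Afp, Gpc3, H19, Lpl and Cyp2a4. Gpc3, a heparan sulfate proteoglycan, averaged 8.70 ± 1.20 FPKM in BALBc livers and 55.48 ± 6.70 in C57 livers (-2.54 ± 0.13 log2). The noncoding RNA H19 averaged 1097 ± 329.8 FPKM in BALBc livers and 5469 ± 555 in C57 livers (-2.35 ± 0.18 log2). Lpl, lipoprotein lipase, averaged 31.8 ± 2.16 FPKM in BALBc livers and 81.4 ± 12.8 in C57 livers, and Cyp2a4, a steroid hydroxylase (55.9% shared with Cyp2a5), 0.426 ± 0.131 FPKM in BALBc livers and 3.72 ± 1.93 in C57 livers. BALB/cJ mice are known for a mutated Zhx2 that leaves Afp and H19 on in adult liver, and the labels do not say whether these BALBc mice carry it. Zhx2 itself averaged 2.38 ± 0.503 FPKM in BALBc livers and 2.04 ± 0.344 in C57 livers and was not called (adjusted p = 0.56, limma).

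The insulin-like growth factor axis split. Igf2, the fetal growth factor, had 1.46, 0.737 and 2.94 FPKM in BALBc livers, against 20.1, 19.6, 22.6 and 19.2 in C57 livers. Igf2 differed by -3.06 ± 0.24 (adjusted p = 6.6e-05). The binding proteins Igfbp1 and Igfbp2 were lower as well: Igfbp1 had 43.6, 105 and 69.4 FPKM in BALBc livers, against 921, 987, 638 and 735 in C57 livers. Igfbp1 differed by -3.55 ± 0.27 (adjusted p = 5.9e-05). Igfbp2 averaged 355 ± 45.8 FPKM in BALBc livers and 3531 ± 544 in C57 livers (-3.31 ± 0.13 log2). Igf1, the postnatal growth factor that growth hormone induces, was higher, with 105, 98.4 and 98.7 FPKM in BALBc livers, against 55.8, 45.7, 55.2 and 62.6 in C57 livers. Igf1 differed by 0.87 ± 0.11 (adjusted p = 0.00095). Over the axis 4 of 18 genes were higher and 4 lower. Of 13 imprinted fetal growth genes 7 were lower and none higher (median -0.55), among them Peg3, a zinc finger gene (9.12 ± 0.464 FPKM in BALBc livers and 30.03 ± 7.33 in C57 livers); with only the 5 livers that had few genes at 1 fragment, 3 were called.

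Iron and haem genes differed in both directions. Hamp, which encodes hepcidin, the hormone that lowers iron uptake, had 2.68, 1.11 and 1.42 FPKM in BALBc livers, against 8.49, 31.8, 23.4 and 23.3 in C57 livers (-2.96 ± 0.39 log2, adjusted p = 0.0012), no overlap; 33.7% of its words occur in Hamp2, which averaged 3.25 ± 0.492 FPKM in BALBc livers and 1.57 ± 1.31 in C57 livers and was not called (adjusted p = 0.16, limma). Hfe, an iron sensor upstream of hepcidin, was lower (5.37 ± 1.06 FPKM in BALBc livers and 11.6 ± 1.78 in C57 livers), and Tmprss6, the protease that represses hepcidin, was higher (242 ± 22.9 FPKM in BALBc livers and 156 ± 16.2 in C57 livers; 0.63 ± 0.11 log2). Of 22 iron genes 3 were higher and 5 lower. The first enzymes of haem synthesis were higher: Alas1 had 80.9, 81.8 and 60.95 FPKM in BALBc livers, against 22.1, 27.3, 26.47 and 20.8 in C57 livers. Alas1 differed by 1.58 ± 0.14 (adjusted p = 0.00013). Alad had 234, 283 and 243 FPKM in BALBc livers, against 68.6, 88.2, 70.2 and 71.8 in C57 livers. Alad differed by 1.75 ± 0.11 (adjusted p = 2.4e-05). Hmox1, which breaks haem down, was lower, with 16.8, 20.05 and 16.6 FPKM in BALBc livers, against 66.3, 60.1, 48.6 and 63.8 in C57 livers. Hmox1 differed by -1.69 ± 0.13 (adjusted p = 5.4e-05). Of 15 haem genes 3 were higher and 4 lower.

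Most lists of enzymes that oxidize or hydrolyse drugs and steroids had more members higher than lower in BALBc livers, and the Cyp2c family had more lower. Of 15 flavin monooxygenases and carboxylesterases, 10 were higher and 2 lower (median 0.84). Fmo2, a monooxygenase, averaged 30.7 ± 4.96 FPKM in BALBc livers and 7.77 ± 0.711 in C57 livers and the carboxylesterase Ces1b 90.51 ± 3.99 FPKM in BALBc livers and 21.1 ± 3.10 in C57 livers (19.8% shared with Ces1c), whereas Ces2e was lower (55.48 ± 0.870 FPKM in BALBc livers and 95.8 ± 8.21 in C57 livers). On a list of the receptors CAR and PXR, cytochromes P450 of the families they induce and Por, the reductase that supplies P450 enzymes with electrons, 8 of 18 genes were higher and 4, Por among them, lower. Cyp2b10, the classic CAR target, had 35.46, 28.05 and 35.04 FPKM in BALBc livers, against 0.294, 0.439, 0.147 and 2.36 in C57 livers (13.1% shared with Cyp2b13). Cyp2b10 differed by 4.36 ± 0.34 (adjusted p = 6.2e-05). Cyp3a44 averaged 161 ± 23.6 FPKM in BALBc livers and 44.2 ± 4.25 in C57 livers and Cyp3a25 289 ± 17.3 FPKM in BALBc livers and 141 ± 15.02 in C57 livers (24.4% and 41.2% shared with other Cyp3a genes), while Cyp3a13 was lower (6.29 ± 0.331 FPKM in BALBc livers and 32.02 ± 5.46 in C57 livers; -2.17 ± 0.13 log2).

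In the Cyp2c family 3 of 12 genes were higher and 5 lower, 8 calls that became 5 without BALBc liver 3. Cyp2c39 had 10.1, 10.46 and 18.55 FPKM in BALBc livers, against 0.308, 0, 0 and 0.216 in C57 livers (22.05% shared with Cyp2c38). Cyp2c39 differed by 3.59 ± 0.22 (adjusted p = 1.6e-05). Cyp2c23, an arachidonic acid epoxygenase, had 14.7, 14.2 and 15.1 FPKM in BALBc livers, against 78.95, 82.6, 84.1 and 86.1 in C57 livers. Cyp2c23 differed by -2.42 ± 0.08 (adjusted p = 3.9e-07). Of 15 P450 genes of other families 6 were higher and 1 lower, among the higher ones Cyp2j5 (138 ± 2.61 FPKM in BALBc livers and 52.7 ± 5.66 in C57 livers), Cyp2d9 (103 ± 8.37 FPKM in BALBc livers and 31.9 ± 5.25 in C57 livers; 14.1% shared with Cyp2d12) and Cyp1a2 (177 ± 21.53 FPKM in BALBc livers and 77.8 ± 13.05 in C57 livers). The aryl hydrocarbon receptor Ahr, known to carry different alleles in the 2 strains, was at 11.8 ± 0.700 FPKM in BALBc livers and 12.53 ± 2.74 in C57 livers and was not called. Of 21 aldo-keto reductases and aldehyde dehydrogenases listed and tested, 7 were higher and 4 lower (median 0.08). With only the 5 livers that had few genes at 1 fragment these 11 calls became 7. A pair of aldo-keto reductases, Akr1b7 of that list and Akr1c18, had low values in BALBc livers. Akr1b7 had 1.02, 1.32 and 1.41 FPKM in BALBc livers, against 35.51, 31.95, 29.8 and 34.6 in C57 livers. Akr1b7 differed by -3.92 ± 0.11 (adjusted p = 2.7e-07). Akr1c18, which inactivates progesterone, had 0.779, 0 and 2.20 FPKM in BALBc livers, against 32.3, 41.95, 52.53 and 38.7 in C57 livers. Akr1c18 differed by -4.55 ± 0.34 (adjusted p = 5.5e-05).

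Conjugating enzymes showed no common direction. Of 21 glutathione transferases 2 were higher and 5 lower, with Gstm1 at 103 ± 10.1 FPKM in BALBc livers and 206 ± 38.6 in C57 livers (22.6% shared) and Gstm3 at 1.13 ± 0.518 FPKM in BALBc livers and 8.11 ± 4.60 in C57 livers (24.7% shared). Of 21 sulfotransferases and glucuronosyltransferases 5 were higher and 4 lower, 9 calls that became 5 without BALBc liver 1. Sult2a2, a sulfotransferase of steroids and bile acids, was lower (147 ± 9.98 FPKM in BALBc livers and 378 ± 42.1 in C57 livers; 55.6% shared with Sult2a1), and Ugt2b1, a glucuronosyltransferase, was higher (100.2 ± 5.10 FPKM in BALBc livers and 48.2 ± 6.497 in C57 livers). On a joint list of NADPH supply and antioxidant enzymes 7 of 27 genes were higher and 1 lower. The higher ones included Glo1 and Cat, peroxisomal catalase (641 ± 39.46 FPKM in BALBc livers and 364 ± 5.74 in C57 livers, 0.81 ± 0.07 log2, limma adjusted p = 0.00015).

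**Figure D3:**
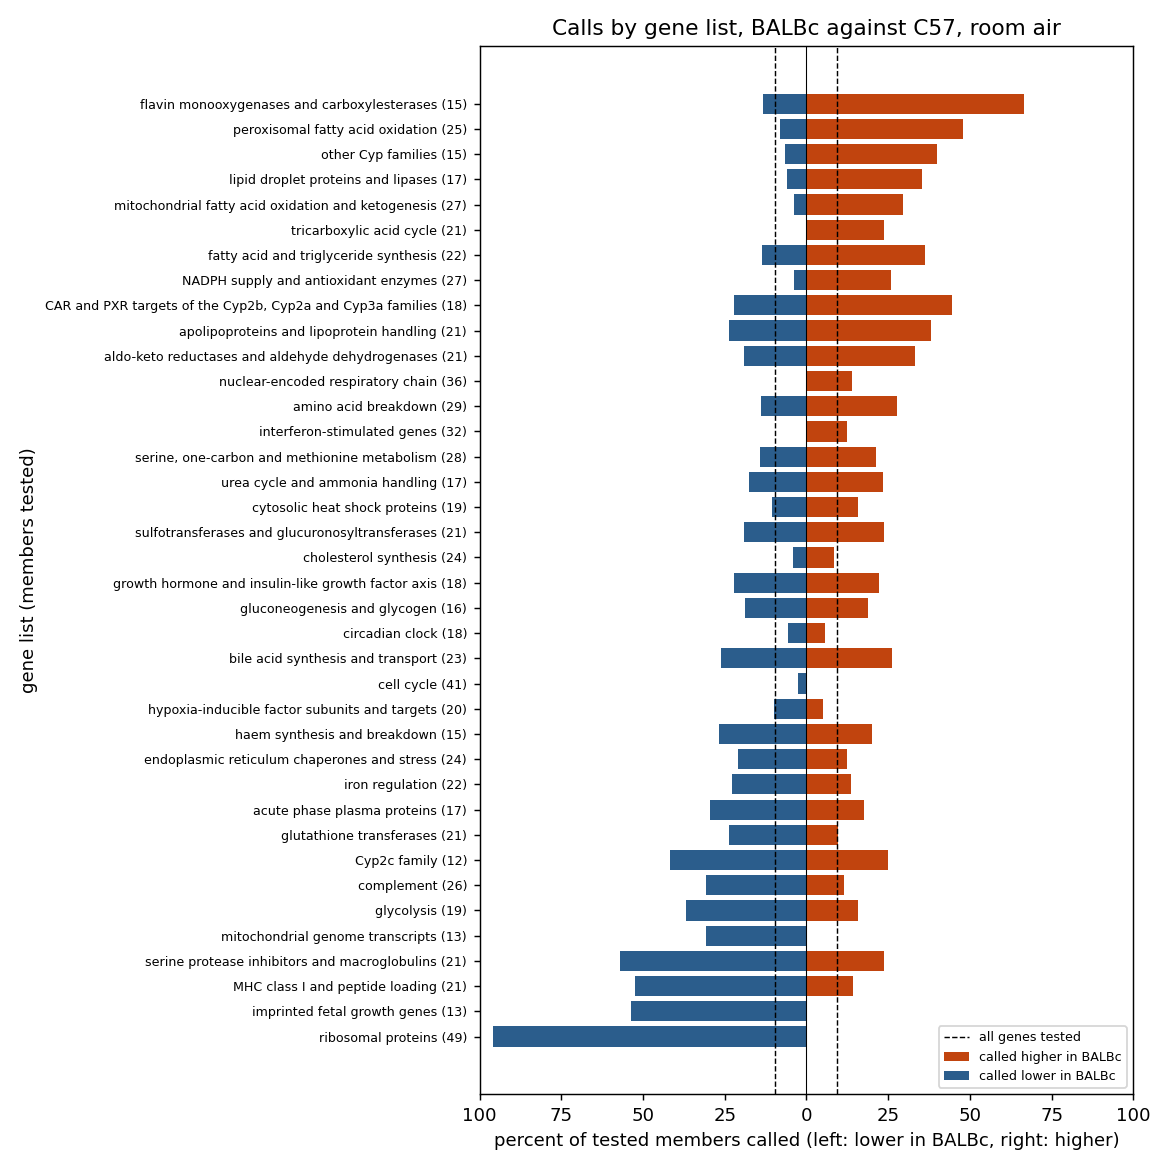
Percent of tested members called higher (right) and lower (left) in BALBc livers for the functional lists with at least 12 tested members, whose number stands in brackets; dashed lines are the shares over all genes tested, 9.37% higher and 9.62% lower. Flavin monooxygenases with carboxylesterases and peroxisomal oxidation reach farthest to the right, ribosomal proteins farthest to the left.

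Genes of fatty acid oxidation were more often higher than lower in BALBc livers. Peroxisomes shorten long fatty acids. On the list for this process 12 of 25 genes were higher and 2 lower (median 0.37), with the mitochondrial Acot2 counted among the higher ones. Pex11a, which divides peroxisomes, had 13.9, 14.2 and 12.7 FPKM in BALBc livers, against 6.27, 4.08, 5.77 and 5.70 in C57 livers. Pex11a differed by 1.19 ± 0.14 (adjusted p = 0.00063). The thiolase Acaa1b averaged 726 ± 64.4 FPKM in BALBc livers and 416 ± 33.7 in C57 livers (40.01% shared with Acaa1a). Acot2, a mitochondrial thioesterase, averaged 11.49 ± 1.96 FPKM in BALBc livers and 5.02 ± 0.203 in C57 livers (29.9% shared with Acot1). In mitochondria 8 of 27 oxidation and ketogenesis genes were higher and 1 lower (median 0.22): Acadvl, very long chain acyl-CoA dehydrogenase, averaged 136 ± 7.84 FPKM in BALBc livers and 81.7 ± 3.95 in C57 livers, and Etfdh, which passes its electrons on, 53.2 ± 0.210 FPKM in BALBc livers and 31.7 ± 1.28 in C57 livers. These 9 mitochondrial calls became 5 without BALBc liver 2 or without BALBc liver 3.

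Lipid synthesis and storage genes also differed. Thrsp, which promotes fatty acid synthesis, had 8.43, 8.39 and 10.4 FPKM in BALBc livers, against 0.397, 0, 0.708 and 0.120 in C57 livers. Thrsp differed by 2.97 ± 0.20 (adjusted p = 2.9e-05). Fads2, a fatty acid desaturase, averaged 495 ± 43.4 FPKM in BALBc livers and 307 ± 17.3 in C57 livers. Of 22 synthesis genes 8 were higher and 3 lower, 11 calls that became 6 without BALBc liver 2 and 7 without BALBc liver 3. Of 17 lipid droplet proteins and lipases 6 were higher and 1, Lpl, lower; Mgll, which splits monoglycerides, averaged 75.6 ± 9.82 FPKM in BALBc livers and 27.6 ± 1.84 in C57 livers and G0s2, an inhibitor of triglyceride lipase, 158 ± 25.4 FPKM in BALBc livers and 62.2 ± 15.51 in C57 livers. Pnliprp1, a relative of pancreatic lipase, had 2.29, 1.36 and 1.08 FPKM in BALBc livers, against 59.9, 52.7, 38.4 and 31.2 in C57 livers. Pnliprp1 differed by -4.16 ± 0.24 (adjusted p = 1.1e-05). Pancreatic lipase itself, Pnlip, was at 0 in all 7 livers. Fam213b, a prostaglandin F synthase on none of the lists, had 36.48, 50.7 and 45.98 FPKM in BALBc livers, against 5.93, 3.67, 5.07 and 7.65 in C57 livers. Fam213b differed by 2.81 ± 0.21 (adjusted p = 4.6e-05). Cholesterol synthesis had 2 of 24 genes higher and 1 lower, with Hmgcs1 at 40.4 ± 6.38 FPKM in BALBc livers and 20.04 ± 2.06 in C57 livers; the 3 calls became 1 without BALBc liver 2.

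Several lipoprotein genes stood far apart. Apon, an apolipoprotein of high density lipoprotein, had 250.1, 289 and 260.4 FPKM in BALBc livers, against 46.6, 32.8, 50.1 and 52.3 in C57 livers. Apon differed by 2.54 ± 0.16 (adjusted p = 1.6e-05). Apoc3, which slows the clearance of triglyceride-rich particles, had 783, 689.53 and 759.8 FPKM in BALBc livers, against 156, 176, 253 and 226 in C57 livers. Apoc3 differed by 1.90 ± 0.16 (adjusted p = 0.00011). Apom, the carrier of sphingosine phosphate, had 167, 172 and 167 FPKM in BALBc livers, against 605, 562, 514 and 565 in C57 livers. Apom differed by -1.73 ± 0.08 (adjusted p = 2.8e-06). The list had 8 of 21 members higher and 5 lower, and its 13 calls became 7, 5 and 6 when BALBc liver 1, 2 or 3 was left out. Of 23 bile acid genes 6 were higher and 6 lower: Slc10a1, which takes bile acids up from blood, averaged 207 ± 20.2 FPKM in BALBc livers and 131 ± 7.70 in C57 livers, and Slc27a5, which activates them, 95.7 ± 8.39 FPKM in BALBc livers and 247 ± 3.70 in C57 livers (-1.36 ± 0.08 log2). These 12 calls became 7 without BALBc liver 2.

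In carbohydrate metabolism Slc2a2, the glucose transporter of hepatocytes, was lower (42.53 ± 1.95 FPKM in BALBc livers and 60.4 ± 2.92 in C57 livers). Of 19 glycolysis genes 3 were higher and 7 lower. Eno1, enolase, was lower (39.8 ± 2.31 FPKM in BALBc livers and 90.6 ± 4.17 in C57 livers; 27.7% shared) and its coding copy Eno1b higher (52.9 ± 4.06 FPKM in BALBc livers and 3.44 ± 1.05 in C57 livers; 81.8% shared). Ppp1r3b, which targets a phosphatase to glycogen, was higher (28.48 ± 3.80 FPKM in BALBc livers and 13.2 ± 3.53 in C57 livers) and Gys2, glycogen synthase, lower (43.1 ± 4.47 FPKM in BALBc livers and 72.3 ± 11.6 in C57 livers).

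Amino acid enzymes went both ways. Prodh, proline dehydrogenase, had 11.8, 9.71 and 15.1 FPKM in BALBc livers, against 0.367, 0.428, 0.962 and 0.512 in C57 livers. Prodh differed by 3.07 ± 0.18 (adjusted p = 1.4e-05). Prodh2, which acts on hydroxyproline, was lower (151 ± 13.3 FPKM in BALBc livers and 276 ± 10.95 in C57 livers). Tdo2, which starts tryptophan breakdown, had 198, 189 and 210.1 FPKM in BALBc livers, against 61.4, 70.6, 60.9 and 79.9 in C57 livers. Tdo2 differed by 1.54 ± 0.11 (adjusted p = 4.1e-05). Gpt, alanine aminotransferase, had 71.8, 66.02 and 95.05 FPKM in BALBc livers, against 9.68, 9.71, 18.6 and 15.005 in C57 livers. Gpt differed by 2.50 ± 0.23 (adjusted p = 0.00018). Asl, argininosuccinate lyase of the urea cycle, was lower (39.8 ± 5.49 FPKM in BALBc livers and 74.2 ± 2.03 in C57 livers). Of 17 urea cycle and ammonia genes 4 were higher and 3 lower, 7 calls that became 4 without BALBc liver 2. Of 29 breakdown genes 8 were higher and 4 lower; with only the 5 livers that had few genes at 1 fragment the 12 calls became 7. Asns, asparagine synthetase, had 1.34, 1.11 and 1.54 FPKM in BALBc livers, against 5.59, 7.14, 5.67 and 7.33 in C57 livers (-1.67 ± 0.14 log2, adjusted p = 9.0e-05) and its activator Atf4 averaged 26.2 ± 1.37 FPKM in BALBc livers and 44.1 ± 5.62 in C57 livers. Of the 24 genes of endoplasmic reticulum stress that include both, 3 were higher and 5 lower, and these 8 calls became 4 without BALBc liver 2. Psat1, an aminotransferase of serine synthesis, was lower (1.13 ± 0.364 FPKM in BALBc livers and 3.51 ± 0.711 in C57 livers), and Gldc, which cleaves glycine, was higher (88.1 ± 16.2 FPKM in BALBc livers and 50.2 ± 3.64 in C57 livers). Of 28 genes of serine, one-carbon and methionine metabolism 6 were higher and 4 lower, 10 calls that became 4 without BALBc liver 2 or without BALBc liver 3 and 6 without C57 liver 4.

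Nuclear genes of the respiratory chain and citric acid cycle, where called, were higher in BALBc livers. Of 36 nuclear respiratory chain genes 5 were higher, 13.9% against 9.37% of all genes, and none lower. Of 21 citric acid cycle genes 5 were higher, 23.8%, and none lower. Cs, citrate synthase, was at 22.6 ± 0.994 FPKM in BALBc livers and 13.2 ± 2.34 in C57 livers. Each set of 5 calls became 2 without BALBc liver 2 or without BALBc liver 3. The cycle calls also became 2 without C57 liver 3, and 3 without BALBc liver 1, C57 liver 1 or C57 liver 2. The respiratory chain calls became 3 without BALBc liver 1. Of 13 messenger RNAs of the mitochondrial genome none was higher and 4 were lower, among them mt-Cytb (3624 ± 275 FPKM in BALBc livers and 7108 ± 1415 in C57 livers; -0.95 ± 0.15 log2, adjusted p = 0.0025; with no filter, adjusted p = 0.087). Mitochondrial genes held 3.36% to 3.91% of the fragments in BALBc livers, 3.90% to 4.36% in C57 livers 1 to 3 and 5.50% in C57 liver 4; the part of that library in these differences was not tested.

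Genes of the major histocompatibility complex, known to carry different haplotypes in the 2 strains, were more often lower than higher in BALBc livers. Of 21 class I and peptide loading genes 3 were higher and 11 lower (median -0.48), 14 calls that became 9 without BALBc liver 1 or without BALBc liver 2. H2-K1, a classical class I heavy chain, had 20.2, 21.2 and 23.8 FPKM in BALBc livers, against 209.9, 179.52, 280.1 and 163 in C57 livers (11.1% shared with H2-D1). H2-K1 differed by -3.17 ± 0.17 (adjusted p = 8.3e-06). H2-Q10, a secreted class I protein of liver, averaged 61.8 ± 4.57 FPKM in BALBc livers and 206 ± 16.8 in C57 livers (21.6% shared), and H2-T10 was higher (3.41 ± 0.630 FPKM in BALBc livers and 0.708 ± 0.212 in C57 livers; 47.4% shared). In class II 4 of 7 genes were lower, with H2-Ab1 at 4.27 ± 1.995 FPKM in BALBc livers and 11.1 ± 1.92 in C57 livers, and 1, H2-Ea-ps, higher; the 5 calls became 3 without BALBc liver 2. The part of the C57BL/6J reference sequence in these values was not tested. Of 32 interferon-stimulated genes 4 were higher and none lower, among them Ifih1, a sensor of double-stranded RNA (4.61 ± 0.762 FPKM in BALBc livers and 2.61 ± 0.388 in C57 livers; not called without BALBc liver 1 or 3), and the calls became 2 without BALBc liver 1 or 2 and 1 without BALBc liver 3.

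Markers of liver cell types fell into groups with different directions. Of 20 Kupffer cell and macrophage markers 13 were lower and 2 higher (median -0.65); summed over the list the level was 429 to 464 FPKM in BALBc livers and 934 to 1396 FPKM in C57 livers. Marco (ENSMUSG00000026390, chromosome 1, 120474538 to 120505024, minus strand, GRCm38), a scavenger receptor of macrophages, had 7.60, 7.62 and 6.18 FPKM in BALBc livers, against 316, 182, 224 and 185 in C57 livers. Marco differed by -4.77 ± 0.19 (adjusted p = 1.3e-06). Cd5l, a macrophage protein that binds lipids, had 28.3, 34.2 and 27.6 FPKM in BALBc livers, against 206, 115, 140.4 and 125 in C57 livers. Cd5l differed by -2.22 ± 0.19 (adjusted p = 0.00011). Lyz2, lysozyme, averaged 30.2 ± 7.79 FPKM in BALBc livers and 138 ± 19.9 in C57 livers (32.8% shared with Lyz1). Cx3cr1, the fractalkine receptor, was one of the 2 higher, with 3.61, 4.18 and 4.14 FPKM in BALBc livers, against 1.01, 0.329, 0.344 and 0.407 in C57 livers. Cx3cr1 differed by 1.73 ± 0.18 (adjusted p = 0.00036). The other was Cd163, also a macrophage marker. Marco, Cd5l and Lyz2 made up much of the list sum in C57 livers. In bulk tissue fewer cells of a type and less RNA per cell cannot be told apart.

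Several eosinophil genes were higher. Prg2, the major basic protein of eosinophil granules, had 23.8, 11.4 and 29.03 FPKM in BALBc livers, against 0, 2.51, 0.222 and 0.469 in C57 livers. Prg2 differed by 3.73 ± 0.45 (adjusted p = 0.00075). Ear1 had 2.004, 3.20 and 3.54 FPKM in BALBc livers, against 0, 0, 0 and 0.269 in C57 livers (40.6% shared with Ear2). Epx, eosinophil peroxidase, had 2.10, 1.04 and 1.51 FPKM in BALBc livers, against 0, 0, 0 and 0.0718 in C57 livers. The list of neutrophils, eosinophils and precursors had these 3 of 15 higher and none lower, and its summed level, 98.4 to 172 FPKM in BALBc livers and 76.1 to 141 FPKM in C57 livers, overlapped. Of 6 tested B cell markers 2 were lower, among them Cd79b, a chain of the B cell receptor (1.62 ± 0.624 FPKM in BALBc livers and 6.02 ± 1.22 in C57 livers), and the list sum was 21.3 to 24.5 FPKM in BALBc livers and 23.4 to 48.7 FPKM in C57 livers; without C57 liver 1 there were 4 calls. Of 6 T and natural killer cell markers 3 were lower, among them the granule protease Gzmb (0.437 ± 0.171 FPKM in BALBc livers and 2.28 ± 0.653 in C57 livers); the 3 calls became 1 without BALBc liver 1.

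Of 20 general hepatocyte markers, all tested, 3 were higher and 6 lower (median -0.01), and the 9 calls became 4 without BALBc liver 2 or without BALBc liver 3. Markers of hepatocyte zones differed too, while a change of the zones themselves was not tested. Of 20 markers of hepatocytes round the central vein 11 were higher and none lower in BALBc livers (median 0.49). In the hyperoxia livers 5 of these markers were called higher and 1 lower in BALBc (median 0.05). Among the 11 called higher in room air, Cyp2e1 and Cyp1a2 were also counted with the P450 genes of other families. Aldh1a1 was also counted with the aldehyde dehydrogenases. Others of the 11 were also counted on the CAR and PXR list and on the urea cycle list. Cyp2e1, an ethanol-oxidizing P450, had 2524, 2157 and 2184 FPKM in BALBc livers, against 1399, 1516, 1206 and 1209 in C57 livers. Cyp2e1 differed by 0.78 ± 0.11 (adjusted p = 0.0015). Aldh1a1, a retinal dehydrogenase, had 14.9, 17.1 and 17.6 FPKM in BALBc livers, against 3.43, 3.67, 6.61 and 3.66 in C57 livers. Aldh1a1 differed by 1.75 ± 0.19 (adjusted p = 0.00048). Of 20 periportal markers 3 were higher and 4 lower (median 0.08), and these 7 calls became 2 without BALBc liver 2, 3 without BALBc liver 3 and 4 without C57 liver 1. Ctsc, cathepsin C, was the lower one with the smallest p (4.92 ± 0.627 FPKM in BALBc livers and 14.46 ± 1.33 in C57 livers).

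**Figure D4:**
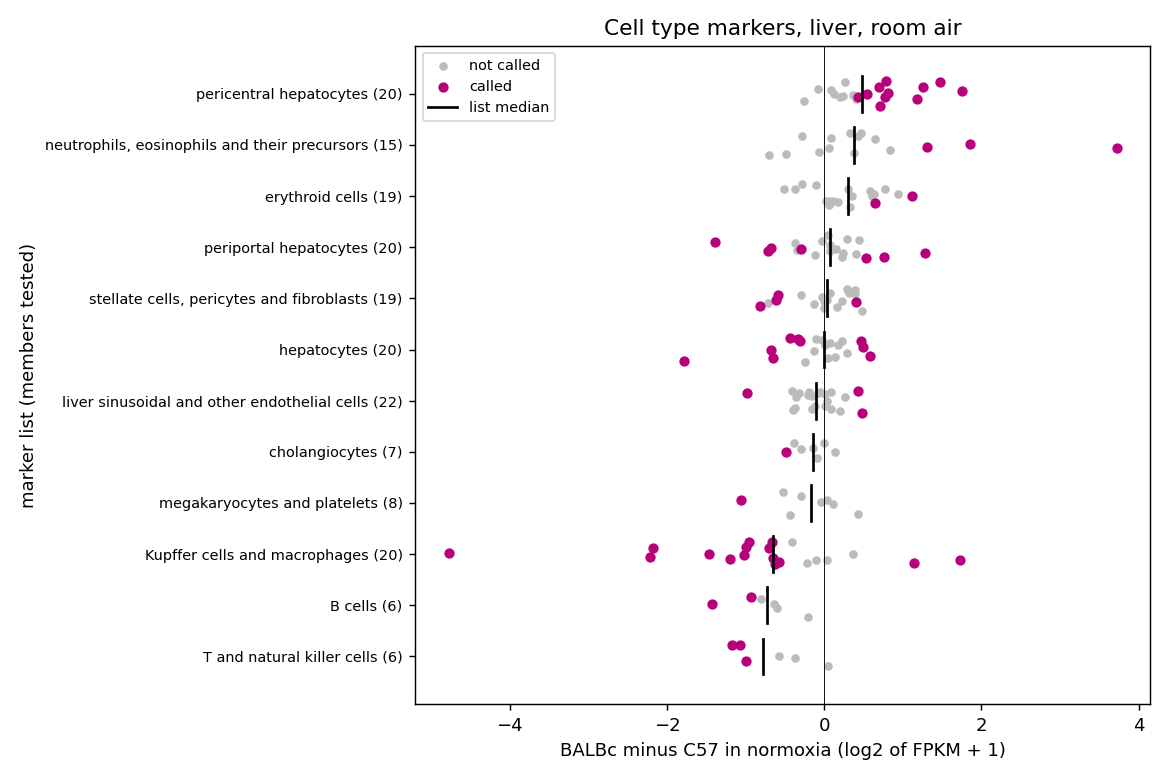
Log2 difference (BALBc minus C57, normoxia) of each tested marker of 12 cell type lists with at least 5 tested members; magenta points are called, grey ones are not, and the black bar is the list median. The pericentral hepatocyte points lie mostly right of 0 (11 of 20 called higher) and the Kupffer cell points mostly left (13 of 20 called lower).

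Erythroid markers were called in 2 of 19, and neither was made when any 1 BALBc liver was left out, while 1 was made without C57 liver 1 or 3 and 6 without C57 liver 4; haemoglobin Hbb-bs (54.4% shared with Hbb-bt) had 830.1, 702 and 837 FPKM in BALBc livers, against 901, 892, 813 and 1629 in C57 livers, with overlap. Of 41 cell cycle genes 1 was called, Mcm6, a subunit of the replication helicase, lower at 10.4 ± 1.22 FPKM in BALBc livers and 18.3 ± 1.30 in C57 livers. Endothelial and stellate cell lists had 3 of 22 and 4 of 19 genes called; Egfl7, secreted by endothelium, averaged 9.99 ± 0.843 FPKM in BALBc livers and 21.1 ± 4.59 in C57 livers and Vim, an intermediate filament, 10.1 ± 0.705 FPKM in BALBc livers and 18.6 ± 2.26 in C57 livers. These 3 and 4 calls became 1 and 2 without BALBc liver 2, and likewise without BALBc liver 3.

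The same strain comparison in the 8 hyperoxia livers, which share no library with the comparison in room air, called 3892 genes, 32.4% of those tested. Of the 1126 genes higher in BALBc livers in room air 844 (75.0%) were also called higher there, against 16.3% of all genes, and of the 1156 lower genes 857 (74.1%) were also called lower, against 16.1% of all genes. As shares of the hyperoxia lists these are 43.1% and 44.4%. All 4 C57 hyperoxia libraries and 1 of the 4 BALBc ones were of the kind with many genes at 1 fragment, so in hyperoxia that trait and strain largely coincide. Altogether 8 genes were called in opposite directions in room air and hyperoxia.

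A test of the difference of the strain differences (limma, all 15 libraries) called 119 genes, 0.99% of those tested: 58 (0.483%) where BALBc minus C57 was higher in hyperoxia and 61 (0.508%) where it was lower. Left-out libraries moved the 119 to between 39 and 175, with 45 without BALBc liver 2, 47 without BALBc liver 3 and 39, 52, 43 and 70 without BALBc hyperoxia 2, BALBc hyperoxia 4, C57 hyperoxia 2 and C57 hyperoxia 4. Mug1 differed less in hyperoxia, with 48.3, 46.02, 61.51 and 59.9 FPKM in BALBc and 37.9, 46.2, 33.3 and 42.7 FPKM in C57 hyperoxia livers (difference of log2 differences -2.32, adjusted p = 0.00019), and Mug2, not called in room air (49.4% shared), was lower in BALBc hyperoxia livers (-1.67 log2). Cyp2c70, a bile acid hydroxylase, was higher in BALBc livers in room air (269 ± 15.8 FPKM in BALBc livers and 184 ± 28.7 in C57 livers; called in 5 of the 7 fits that left out 1 liver) and lower in hyperoxia (-0.92 log2; adjusted p = 0.00085). Hamp had 67.8, 318, 302 and 339 FPKM in BALBc hyperoxia livers, against 111, 59.7, 113 and 212 FPKM in C57 hyperoxia livers (3.91, limma adjusted p = 0.025). These groups overlapped, and the strain difference of Hamp in hyperoxia was not called. Hmox1 differed by -1.69 in room air and -0.43 in hyperoxia, and Acot2 by 1.04 and 2.11. Serpina3k, Afp and Marco, named for large room air differences, kept their direction with smaller differences in hyperoxia, 4.34, -2.57 and -2.50 on the log2 scale.

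**Figure D5:**
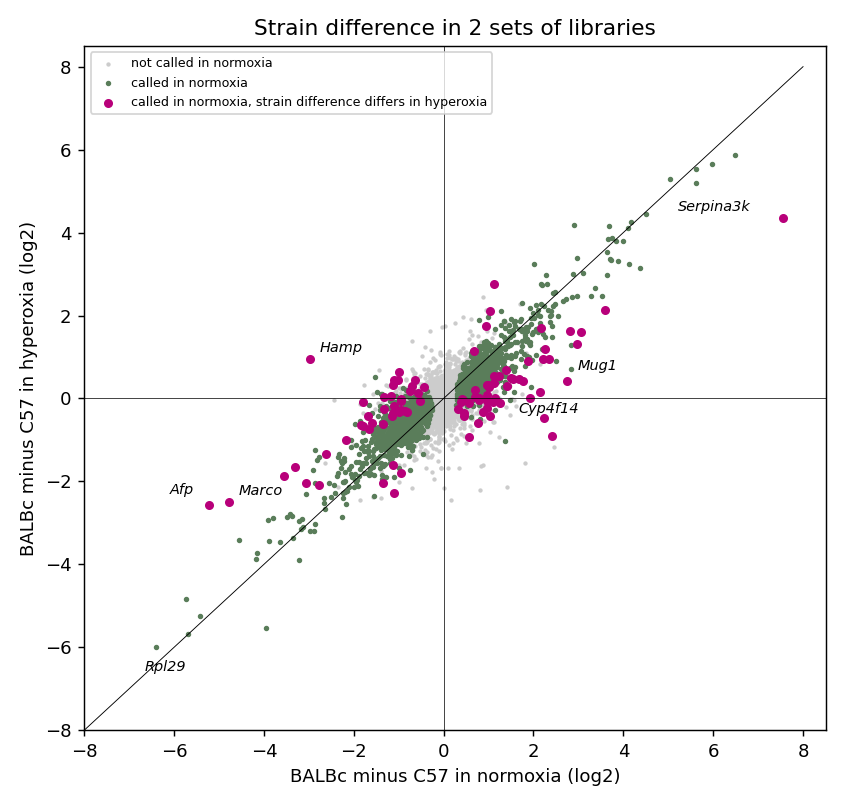
Strain difference of each tested gene in normoxia (horizontal) and in hyperoxia (vertical), log2, BALBc minus C57; green and magenta points were called in normoxia, magenta ones also in the test of the difference between the axes, and the diagonal is equality. Most called genes lie in the quadrants of like sign, and Hamp lies across an axis.

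Called genes were spread over the genome. By chromosome the share called was 14.4% (chromosome 2, 936 genes tested) to 22.2% (chromosome 17, 613 genes tested) on the autosomes and 19.0% on the X. By kind of gene, 18.8% of 10730 protein-coding genes and 24.4% of 529 processed pseudogenes were called, and processed pseudogenes took 0.450 ± 0.012% of the fragments in BALBc livers and 0.346 ± 0.014% in C57 livers (SD).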

How the data were processed

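Total RNA came from TRIzol extraction and the libraries from a NEBNext Ultra II kit, per the labels' protocols. GRCm38 is the genome build and HISAT2 2.0.5 with featureCounts 1.5.0-p3 the tools, per the submitters' processing notes. The sources used here do not give strandedness, so a gene and its antisense partner cannot be told apart. The authors deposited FPKM per gene; raw counts and reads were not analysed here. Of 54532 gene identifiers 54495 matched GENCODE M21, which gave symbols, positions and exon lengths.

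Genes at 1 FPKM or more in at least 3 of the 7 room air libraries were fitted as log2(FPKM + 1) with limma 3.58.1 in R 4.3.3 (variance trend, Benjamini-Hochberg, adjusted p under 0.05); a pseudocount of 1 shrinks differences of weak genes. The script was tested on simulated data. The hyperoxia libraries had a fit of their own, and the difference of the strain differences was tested over all 15 libraries. The depth in fragments was computed from the steps between low FPKM values, and fragments per 1000000 are FPKM times exon length in kilobases. Shared sequence is the percent of a gene's 31-base words, from GENCODE transcripts, found in another gene.

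Groups come from the sample labels. Genes named are the 12 largest differences each way among called coding genes and up to 4 members of smallest p per list described. Loci known to differ between the strains, Hamp, Hamp2, Xist and the 6 genes of smallest p for the difference between conditions are also named. The annotated copies, Fabp5, Cyp2a4, Por and Cd163 were added after their values were seen. Some genes that this rule names are not reported here. The members and lists were chosen with earlier results of these data known. Alternatives were other pseudocounts, filters, scalings and covariates, a replicate block, array weights, a fit of all 15 libraries and leaving out each library.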

Additional observations from a re-analysis of the deposited data

Results flagged for a closer look

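For 27 of the genes described, limma's test over all 15 libraries found that the strain difference (BALBc minus C57) was not the same in hyperoxia as in room air; values are the difference in hyperoxia minus that in room air, on the log2 scale. Genes higher in BALBc livers in room air, with a smaller difference of the same sign in hyperoxia, were Serpina3k (-3.21), Mug1 (-2.32), Thrsp (-1.66), Prodh (-1.47), Cyp2c39 (-1.45), Fam213b (-1.18), Tdo2 (-1.06), Saa4 (-0.88), Cyp2j5 (-0.70), C8a (-0.63) and Gm4737 (-0.48). Genes lower in BALBc livers in room air, with a smaller difference of the same sign in hyperoxia, were Afp (2.65), Marco (2.28), Igfbp1 (1.67), Igfbp2 (1.65), Hmox1 (1.26), Lyz2 (1.18), Serpina1d (1.02), Peg3 (1.01) and Asns (0.92). The difference was larger in hyperoxia for Acot2 (1.07), which was higher in BALBc livers, and for mt-Cytb (-0.85), Sult2a2 (-0.69) and Ahcy (-0.49), which were lower. Cyp2c70 (-1.48) and Hamp (3.91) had strain differences of opposite sign in the 2 conditions, but that of Hamp was not called in hyperoxia. Mug2 (-2.02) was called in hyperoxia and not in room air. Most of the genes described were chosen by their room air values, which are also part of this test. Such a choice favours smaller differences in hyperoxia. All 4 C57 hyperoxia libraries, but 1 of the 4 BALBc hyperoxia libraries, had many genes at 1 fragment, and the part of that in these values was not tested.

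In 11 genes the highest C57 room air library was set apart from the other 3 by Dixon's test at its 95% critical value, which compares the gap to the nearest library with the range of the 4 and takes no account of how small that range is. In C57 liver 4 these were Hbb-bs (1629 FPKM), Ahcy (229.99 FPKM, with the others at 220.1 to 221.2 FPKM), Cyp2b10 (2.36 FPKM), Ear1 (0.27 FPKM) and Epx (0.072 FPKM). The highest library was C57 liver 2 for Alad (88.2 FPKM) and Zhx2 (2.55 FPKM), C57 liver 1 for C8a (60.4 FPKM), Por (121 FPKM) and Cx3cr1 (1.01 FPKM), and C57 liver 3 for Aldh1a1 (6.61 FPKM). At that critical value chance sets about 1 in 20 groups apart.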

How the results depend on the processing

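The 2282 calls in room air (1126 higher, 1156 lower in BALBc livers) came to 3847 (1958 and 1889) with all 15 libraries in the fit, and to 1274 (606 and 668) with only the 5 livers that had few genes at 1 fragment, an alternative added after seeing the data. Leaving out 1 library gave 1350 to 2110 calls, 617 to 1028 higher and 733 to 1082 lower, with fewer samples in each fit. Filtering at FPKM 5 or not at all, a pseudocount of 0.1, median or quantile scaling, no variance trend, Xist as a covariate, array weights and library kind as a term gave 1674 to 2527. In hyperoxia, leaving out 1 library gave 3261 to 3649 calls, 1628 to 1848 higher and 1598 to 1836 lower. For the difference of the strain differences, leaving out 1 library gave 39 to 175 calls, 19 to 81 higher and 20 to 94 lower. Among the genes given with values, those that changed sign were not called: Ahr was at -0.174 to 0.064 when 1 library was left out, and Xist was at -0.77 with the 5 livers alone. Of the 128 genes, 7 lost their call under at least 1 alternative: Hp and mt-Cytb as given with them, Cela1 with no filter, the replicate block, the 5 livers alone or any of 5 single libraries left out, Cyp2c70 with no filter, without BALBc liver 1 or 3 or with the 5 livers alone, Ifih1 without BALBc liver 1 or 3 or with the 5 livers alone, and Ppp1r3b and H2-Ab1 with the 5 livers alone. Cela2a, not called, was called lower with array weights and without C57 liver 2. The cause of these changes was not tested.

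With the replicate number as a block, 1473 genes were called in room air, 695 higher and 778 lower, 3589 in hyperoxia and 95 for the difference of the strain differences. Same-numbered libraries of the strains had deviations correlated at -0.03, 0.04 and 0.05. Yet 5 of the 6 libraries numbered 1 to 3 correlated best with their own number. Whether same-numbered libraries share more than a number was not tested.

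The comparison rests on 3 BALBc and 4 C57 livers, and at FPKM near 1 a value rests on few fragments.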
